A study of Mus musculus with 17 samples.

Results

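The vascular endothelial growth factor (VEGF) ligands and receptors are 10 genes of the 55359 rows in the table: the ligands *Vegfa*, *Vegfb*, *Vegfc*, *Vegfd* and *Pgf*, the receptor tyrosine kinases *Flt1*, *Kdr* and *Flt4*, and the co-receptors *Nrp1* and *Nrp2*. They were chosen by family membership, as the rows whose gene identifier carries one of these symbols in the GENCODE mouse annotation, but the family was picked with its differences between *Ocn* genotypes in these same libraries already known. The differences from WT are therefore given below as a description, without p-values, and calls at the threshold are counted only as part of that description. The comparison of the mutants with each other and the comparison of the organs were not the basis of that choice. Earlier results of these data were nevertheless known when the tests were chosen. All 10 genes passed the filter on low counts in both organs.

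RNA was sequenced from male pups at postnatal day 1 of the Ocn_GK strain, in which *Osteocalcin*, a hormone gene expressed in bone, was deleted by homologous recombination in embryonic stem cells on a 129/SvEv background. WT pups came from WT mothers, whereas *Ocn*+/- and *Ocn*-/- pups both came from *Ocn*-/- mothers. Testes gave 8 libraries, 2 of WT, 3 of *Ocn*+/- and 3 of *Ocn*-/- pups, and forebrain including the hippocampus, which the sample labels call hippocampus, gave 9 libraries, 3 of each genotype. Pup genotype, maternal genotype and litter cannot be told apart in any comparison with WT, and only the comparison of *Ocn*-/- with *Ocn*+/- pups holds the maternal genotype constant. In testes the study counts as many mice of each genotype as there are libraries, but in forebrain it counts 2 WT mice where 3 WT libraries are labelled. The study may have left out a WT library, or WT libraries may share a mouse, in which case their spread would be partly technical. Which of these holds is not given, and all 3 were used as labelled. Whether littermates were used is not given in the sources used here.

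Testes libraries held 7302401 to 8289015 counts in total and forebrain libraries 6518151 to 14621584. The shallowest forebrain library, WT replicate 3, stood apart from its group, with a normalization factor of 0.866 where the other forebrain libraries had 0.991 to 1.04. *Bglap* and *Bglap2*, the osteocalcin genes, could not check the genotype labels, because *Bglap* had at most 2 counts in any testes library and at most 5 in any forebrain library, and *Bglap2* had 0 counts in all 17. Sertoli cell markers summed to 2695 to 4031 CPM (counts scaled to the library's total) in testes and 122.8 to 145 in forebrain. In the forebrain libraries 14 markers of forebrain regions outside the hippocampus summed to 718.5 to 1252 CPM and 8 hippocampus markers to 342 to 506, so both were present, and sums over different genes do not give the share of each region.

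VEGF signalling drives the growth, survival and permeability of blood vessels. VEGF-A, made by many cell types when oxygen falls, signals mainly through VEGFR2, the product of *Kdr*, on endothelial cells. VEGFR1, the product of *Flt1*, binds VEGF-A, VEGF-B and placental growth factor tightly and also exists as a soluble form that holds ligand back. VEGF-C and VEGF-D act on VEGFR3, encoded by *Flt4* and known for its role in lymphatic growth, and the neuropilins serve both VEGF and class 3 semaphorins, which guide axons. Hypoxia-inducible factors (HIFs) are transcription factors that bind the core letters ACGTG or GCGTG.

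The 10 genes are spread over 8 chromosomes of the mouse genome build GRCm39. *Vegfa* (ENSMUSG00000023951) lies on the minus strand at chr17:46327919-46343309, *Vegfb* (ENSMUSG00000024962) on the minus strand at chr19:6958447-6965127 and *Vegfc* (ENSMUSG00000031520) on the plus strand at chr8:54530257-54640131. *Vegfd* (ENSMUSG00000031380) lies on the plus strand at chrX:163156240-163185646 and *Pgf* (ENSMUSG00000004791) on the minus strand at chr12:85213409-85224564. *Flt1* (ENSMUSG00000029648) and *Kdr* (ENSMUSG00000062960) share chromosome 5, both on the minus strand, at chr5:147498414-147662826 and chr5:76093487-76139884. *Flt4* (ENSMUSG00000020357) lies at chr11:49500090-49543582, *Nrp1* (ENSMUSG00000025810) at chr8:129085085-129231082 and *Nrp2* (ENSMUSG00000025969) at chr1:62742444-62857854, all on the plus strand.

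Upstream sequences are shown for *Vegfa*, *Flt1* and *Vegfd*, the members whose calls in both mutant testes held in every alternative setting, because HIF cores in upstream DNA bear on the HIF target genes described further on. They were read from GRCm39 on the strand of the gene, and capitals mark ACGTG or GCGTG on either strand, so that CACGC is GCGTG read on the other strand. The *Vegfa* stretch runs from 978 to 853 bases before the annotated start and is centred on the only match of TACGTG within 2000 bases of the start, at chr17:46344162-46344287. The others are the 250 bases before the start, at chr5:147662822-147663071 for *Flt1* and chrX:163155990-163156239 for *Vegfd*.
*Vegfa*: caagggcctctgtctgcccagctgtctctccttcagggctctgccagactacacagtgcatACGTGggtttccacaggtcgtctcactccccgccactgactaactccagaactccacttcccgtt
*Flt1*: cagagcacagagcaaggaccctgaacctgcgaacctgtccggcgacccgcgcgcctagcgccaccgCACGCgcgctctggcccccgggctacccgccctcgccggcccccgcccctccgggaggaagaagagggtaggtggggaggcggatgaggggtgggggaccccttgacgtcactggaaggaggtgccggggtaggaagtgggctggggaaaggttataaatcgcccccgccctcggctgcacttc
*Vegfd*: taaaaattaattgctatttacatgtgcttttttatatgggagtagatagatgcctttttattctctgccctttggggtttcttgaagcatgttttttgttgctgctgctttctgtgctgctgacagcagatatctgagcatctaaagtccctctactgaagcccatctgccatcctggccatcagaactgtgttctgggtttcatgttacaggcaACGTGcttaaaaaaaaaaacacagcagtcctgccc

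The *Flt1* stretch held 23 CG pairs and 1 GCGTG, and the *Vegfd* stretch held 1 CG pair and 1 ACGTG. Either core stood in 41.3% of the 250-base stretches before 21769 gene starts, so holding one is common, and the 250 bases before the *Vegfa* start held neither. TACGTG, searched on both strands, stood in 19.6% of the 2000-base stretches before the same starts, and ACGTG, which TACGTG contains, in 61.8%. Of the other members, *Pgf* and *Flt4* each had 1 TACGTG within 2000 bases, *Nrp1* had 3, and the rest had none. The matches are a description of the letters and not a sign of binding.

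In testes, transcripts of *Vegfa*, *Vegfd* and *Flt1* were called lower than WT in both mutants, at 0.34 to 0.46 times the WT level, and *Kdr* was at 0.61 times WT in *Ocn*+/- and 0.50 times in *Ocn*-/- testes. *Vegfc* was at 0.49 and 0.39 times WT but did not pass the threshold. *Vegfb* and *Pgf* lay within the WT range or close to it. In forebrain, *Vegfa* and *Flt1* were lower to a similar extent, at 0.39 to 0.45 times WT, and *Kdr* at 0.71 and 0.72 times WT. For the other 7 genes the mutant forebrain libraries did not all lie below WT. Levels are given as TMM-normalized CPM, and fold changes are log2 values with their standard errors from edgeR.

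*Vegfa* stood at 102 and 139.5 CPM in the 2 WT testes, at 59.3, 53.1 and 54.9 in the *Ocn*+/- testes, and at 54.3, 49.5 and 49.8 in the *Ocn*-/- testes. Every mutant library lay below both WT libraries, and the log2 fold changes were -1.12 ± 0.139 and -1.24 ± 0.139. In forebrain the WT libraries had 81.4, 100.3 and 107 CPM, the *Ocn*+/- libraries 40.7, 38.9 and 49.9, and the *Ocn*-/- libraries 40.5, 38.8 and 43.7. The groups were again apart, with log2 fold changes of -1.15 ± 0.115 and -1.22 ± 0.115, or -1.07 and -1.14 without WT replicate 3.

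*Vegfd*, a ligand of the *Flt4* product that is strongly expressed in lung, was at 53.8 and 55.5 CPM in WT testes. It was at 18.2, 16.4 and 21.5 CPM in *Ocn*+/- and at 19.2, 24.5 and 14.5 CPM in *Ocn*-/- testes. The mutants were all below WT, by log2 values of -1.55 ± 0.196 and -1.49 ± 0.195. In forebrain *Vegfd* was scarce, from 1.27 to 2.42 CPM over the 9 libraries, and the genotypes overlapped.

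*Vegfc*, the other ligand of *Flt4*, was at 7.26 and 6.56 CPM in WT testes, at 2.92, 3.53 and 3.58 in *Ocn*+/- and at 2.61, 4.21 and 1.26 in *Ocn*-/- testes. No mutant library reached WT, but these values rest on 10 to 56 counts, and the log2 fold changes of -1.04 ± 0.403 and -1.36 ± 0.407 did not pass the threshold. In forebrain *Vegfc* ranged from 2.14 to 4.61 CPM, both of these in WT libraries. About 8.94% of its 50-base stretches occur also in an antisense transcript, so its counts are less certain than those of the other ligands.

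*Vegfb*, linked to fatty acid handling and vessel survival, was at 22.03 and 28.01 CPM in WT testes, at 30.0, 26.3 and 33.6 in *Ocn*+/- and at 25.1, 16.2 and 24.8 in *Ocn*-/- testes. Both mutant groups overlapped WT, with log2 fold changes of 0.26 ± 0.207 and -0.18 ± 0.208. In forebrain it ranged from 32.2 to 39.0 CPM, with log2 fold changes of 0.13 ± 0.104 and -0.01 ± 0.105. *Vegfb* overlaps the protein-coding gene *Trpt1* on the opposite strand. *Pgf*, the placental growth factor gene, had 3.57 to 5.31 CPM over the testes libraries and 1.20 to 2.42 over the forebrain libraries, and its genotypes overlapped in both organs.

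**Figure D1:**
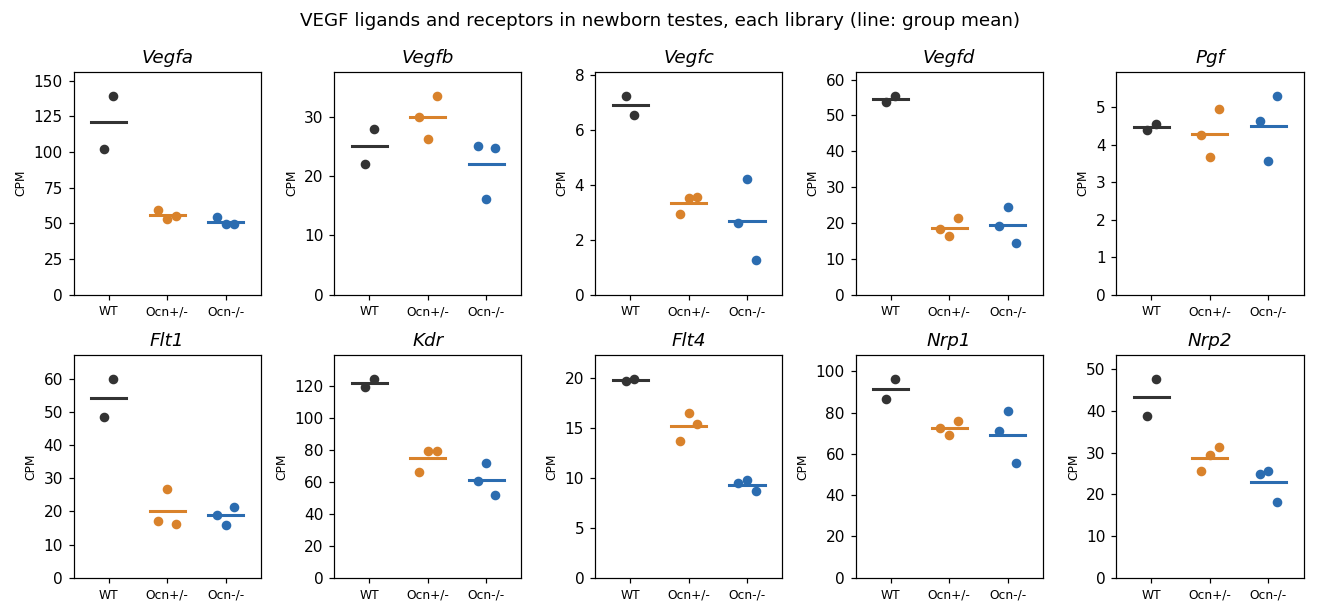
Level of each gene in the 8 testes libraries, in TMM-normalized CPM on a linear axis from 0, by genotype; points are libraries and lines are group means. All mutant points lie below both WT points for 8 of the 10 genes, the exceptions being *Vegfb* and *Pgf*.

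Among the receptors, *Flt1* was at 48.6 and 59.9 CPM in WT testes, at 17.1, 26.6 and 16.4 in *Ocn*+/- and at 19.0, 16.1 and 21.5 in *Ocn*-/- testes. The mutant libraries were all below WT, with log2 fold changes of -1.43 ± 0.207 and -1.53 ± 0.207. In forebrain the WT libraries spread more widely, at 35.2, 49.8 and 63.5 CPM, against 22.5, 16.4 and 18.5 in *Ocn*+/- and 19.6, 22.8 and 18.0 in *Ocn*-/-. The groups did not overlap there either, with log2 fold changes of -1.35 ± 0.187 and -1.28 ± 0.186, or -1.14 and -1.06 without WT replicate 3. Counts per gene do not separate the membrane-bound from the soluble form.

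*Kdr* was at 119.5 and 124.5 CPM in WT testes, at 66.2, 79.1 and 79.2 in *Ocn*+/- and at 60.3, 72.0 and 51.7 in *Ocn*-/- testes. All mutants were below WT, by log2 values of -0.71 ± 0.141 and -0.99 ± 0.141. In forebrain the WT libraries had 53.2, 68.8 and 68.3 CPM, the *Ocn*+/- libraries 48.0, 39.3 and 48.5, and the *Ocn*-/- libraries 44.0, 39.5 and 51.1. The gap between the groups was narrow, since the lowest WT library stood just above the highest mutant, and the log2 fold changes were -0.48 ± 0.124 and -0.49 ± 0.124. Of 14 alternative settings, the forebrain difference lost its call in 6 for *Ocn*+/- and 5 for *Ocn*-/-, among them leaving out WT replicate 2 (-0.41 and -0.43) and WT replicate 3 (-0.42 and -0.43).

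*Flt4* was at 19.7 and 19.9 CPM in WT testes, at 13.7, 16.5 and 15.4 in *Ocn*+/- and at 9.48, 9.81 and 8.72 in *Ocn*-/- testes. The *Ocn*+/- libraries lay between the other groups without overlap, and the log2 fold changes were -0.38 ± 0.197 and -1.08 ± 0.200. In forebrain *Flt4* ranged from 4.50 to 8.63 CPM, with the genotypes mixed.

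The co-receptor *Nrp2*, which binds VEGF-C and semaphorins, was at 38.9 and 47.7 CPM in WT testes, at 25.5, 29.4 and 31.4 in *Ocn*+/- and at 25.01, 25.6 and 18.2 in *Ocn*-/- testes. Its mutant libraries were all below WT, by log2 values of -0.59 ± 0.180 and -0.92 ± 0.180. *Nrp1*, the co-receptor of VEGF-A, was at 86.7 and 96.3 CPM in WT testes, and the mutants ranged from 55.6 to 80.7, with log2 fold changes of -0.34 ± 0.145 and -0.40 ± 0.145. In forebrain *Nrp2* ranged from 162 to 288 CPM and its genotypes overlapped. *Nrp1* was at 60.6 to 68.9 CPM in WT, 67.3 to 72.9 in *Ocn*+/- and 69.8 to 80.0 in *Ocn*-/- forebrain. Its *Ocn*-/- libraries thus lay just above WT, but the log2 fold change of 0.21 ± 0.092 did not pass the threshold.

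**Figure D2:**
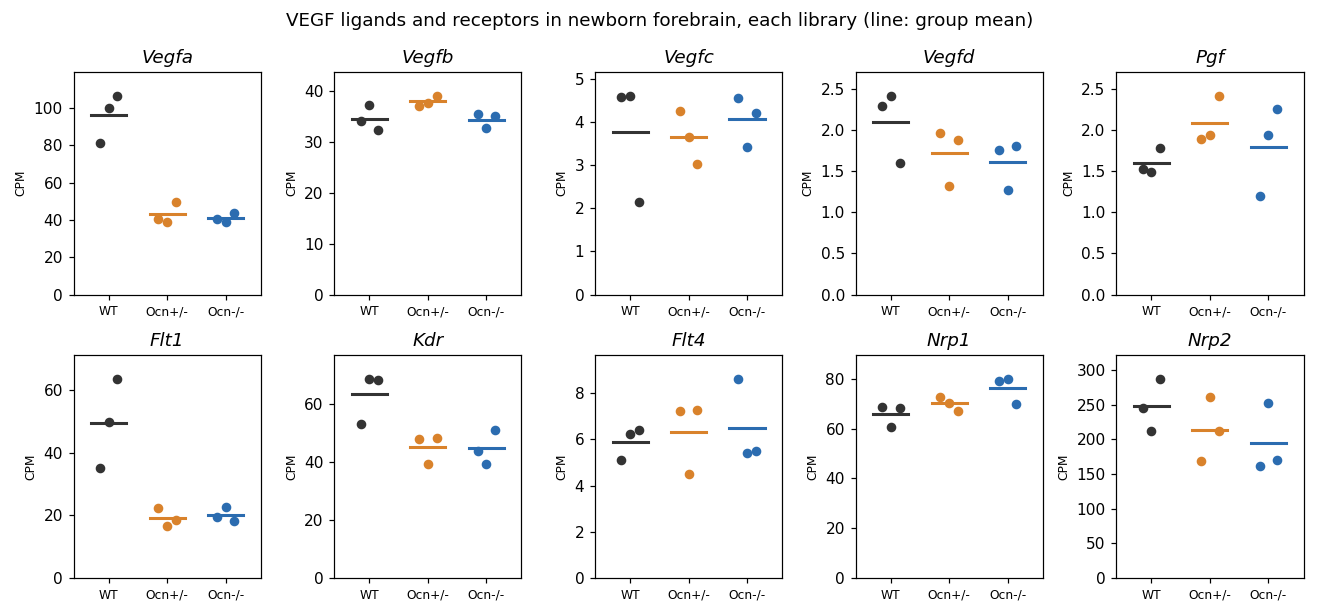
Level of each gene in the 9 forebrain libraries, in TMM-normalized CPM on a linear axis from 0, by genotype; points are libraries and lines are group means. Every mutant point lies below every WT point for *Vegfa*, *Flt1* and *Kdr* and for no other member.

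*Flt4* in *Ocn*-/- testes and *Kdr* in *Ocn*+/- testes were no longer called when either WT testis was left out (log2 fold changes of -1.08 and -1.06 for *Flt4*, -0.73 and -0.66 for *Kdr*), nor was *Nrp2* in *Ocn*-/- testes without WT replicate 2, at -0.74. With *Ocn*-/- replicate 2 left out, *Vegfc* and *Nrp1* were called in *Ocn*-/- testes, at -1.82 and -0.53, and *Vegfc* was called there without the filter on low counts as well. *Nrp2* in *Ocn*+/- testes, which just missed the threshold, was called in 4 of 13 alternative settings.

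The calls, at an adjusted p below 0.05 over all genes tested, were 4 of 10 members in *Ocn*+/- testes (*Vegfa*, *Vegfd*, *Flt1* and *Kdr*) and 6 of 10 in *Ocn*-/- testes, where *Flt4* and *Nrp2* joined them. All were lower than in WT. Over 16361 genes tested in testes, 8.25% were called in *Ocn*+/- and 5.64% in *Ocn*-/-, and 4.36% and 3.09% were called lower. In forebrain 3 of 10 were called in each mutant, *Vegfa*, *Flt1* and *Kdr*, all lower, against a background of 3.89% and 4.85% of 16076 genes called and 2.68% and 3.05% called lower. Every mutant library lay below every WT library for 8 members in testes and 3 in forebrain, where 13.6% and 8.57% of all genes tested did so. Since these contrasts were known when the family was picked, nothing is read from these shares, and both mutants were set against the same WT libraries. *Vegfa* and *Flt1* in both organs, and *Vegfd* in testes, stayed called in each of the alternative settings tried.

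**Figure D3:**
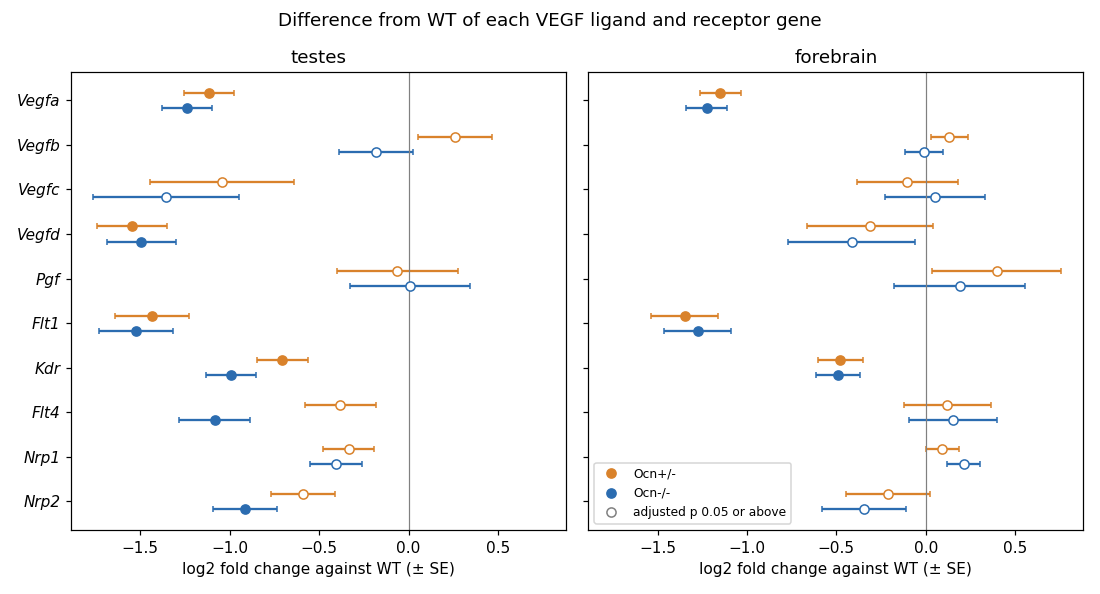
Log2 fold change of each gene in *Ocn*+/- and *Ocn*-/- pups against WT, with standard errors, in testes and forebrain; filled points had an adjusted p below 0.05 and open points did not. *Vegfa* and *Flt1* lie between -1.12 and -1.53 in every comparison, and *Pgf* and *Vegfb* lie near 0 in testes.

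The comparison of *Ocn*-/- with *Ocn*+/- pups asks whether the pup's remaining allele made a difference when the mothers had none. No member passed the threshold in either organ, in edgeR or in DESeq2. Over all genes edgeR called 0 in testes, a share of 0%, with 1881 at an unadjusted p below 0.05, and DESeq2 called 72. In forebrain edgeR called 1 gene, 0.00622% of those tested, with 515 at an unadjusted p below 0.05, and DESeq2 called 5. *Flt4* in testes had the largest difference of the 10, a log2 fold change of -0.70 with a 95% interval from -1.07 to -0.34 and an edgeR adjusted p of 0.251. The 3 *Ocn*-/- testes lay below the 3 *Ocn*+/- testes for this gene. The *Vegfa* interval had bounds of -0.38 and 0.13 in testes and of -0.30 and 0.15 in forebrain. The *Flt1* interval had bounds of -0.48 and 0.29 in testes and of -0.30 and 0.44 in forebrain, and differences between the mutants within these bounds remain possible.

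The organs were compared in WT pups, in one fit of all 17 libraries, in which 71.1% of 17800 genes were called. *Nrp2* was higher in forebrain, with a log2 difference of 2.84 ± 0.236 and an edgeR adjusted p of 8.09e-09, and so was *Vegfb*, by 0.78 ± 0.169 with an adjusted p of 0.000232. *Vegfd* was lower in forebrain by a log2 difference of -4.33 ± 0.242 (adjusted p = 5.15e-14), *Flt4* by -1.44 ± 0.242 (adjusted p = 1.09e-05), *Pgf* by -1.17 ± 0.359 (adjusted p = 0.00556) and *Kdr* by -0.63 ± 0.145 (adjusted p = 0.000455). These 6 kept their direction and call in all 22 alternative settings. *Vegfa* and *Flt1* differed by -0.02 and 0.17, and these signs turned under some alternatives. With library size alone in place of TMM, *Vegfa* and *Nrp1* were called lower in forebrain as well, while the median of all genes moved from -0.076 to -0.393.

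Levels of different genes were compared as CPM per kilobase (kb) of exon. In WT testes *Vegfa* led with 24.98 ± 5.55 CPM per kb (SD, n = 2), followed by *Vegfd* with 17.04 ± 0.431, *Kdr* with 11.8 ± 0.382, *Vegfb* with 6.83 ± 1.18 and *Nrp1* with 5.33 ± 0.411. *Flt1* with 3.53 ± 0.533 and *Nrp2* with 3.20 ± 0.470 overlapped, as did *Vegfc* with 2.15 ± 0.146 and *Flt4* with 2.13 ± 0.0248, and *Pgf* was last with 1.36 ± 0.0332. In WT forebrain *Vegfa* with 24.8 ± 3.42 CPM per kb (SD, n = 3) and *Nrp2* with 22.9 ± 3.61 overlapped, followed by *Vegfb* with 11.7 ± 0.790 and *Kdr* with 7.64 ± 1.07. *Nrp1* with 4.79 ± 0.357 and *Flt1* with 4.02 ± 1.16 overlapped there, *Vegfc* with 1.46 ± 0.544 overlapped *Vegfd* with 0.817 ± 0.167, *Vegfd* overlapped *Flt4* with 0.795 ± 0.0945, and *Pgf* had 0.607 ± 0.0620. *Nrp1* moved up when its longest transcript was used as the length, because its merged exons are much longer than any one transcript.

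The make-up of the ligand pool also differed between WT and mutant libraries. In WT forebrain *Vegfa* made up 58.6% to 67.8% of the summed ligand level per kb and *Vegfb* 27.0% to 32.3%. In the *Ocn*+/- forebrain *Vegfa* made up 39.4% to 44.4% and *Vegfb* 45.8% to 50.2%, and in the *Ocn*-/- forebrain the ranges were 41.2% to 42.7% and 45.2% to 47.4%. *Vegfb* itself changed little in CPM, so its larger share came with the lower *Vegfa*. In testes *Vegfd* made up 30.2% to 35.3% of the ligand pool in WT, 20% to 22.4% in *Ocn*+/- and 19.2% to 30.9% in *Ocn*-/- pups, the last overlapping WT. *Vegfb* made up 12.7% to 13.4% there in WT, 28.1% to 30.7% in *Ocn*+/- and 17.9% to 28.7% in *Ocn*-/- testes. Of the receptor pool in testes, *Kdr* held 66.6% to 68.6% in WT and *Flt1* 18.8% to 21.6%. *Flt1* held 10.3% to 15.5% in *Ocn*+/- and 11.5% to 19.1% in *Ocn*-/- testes, which overlapped WT.

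**Figure D4:**
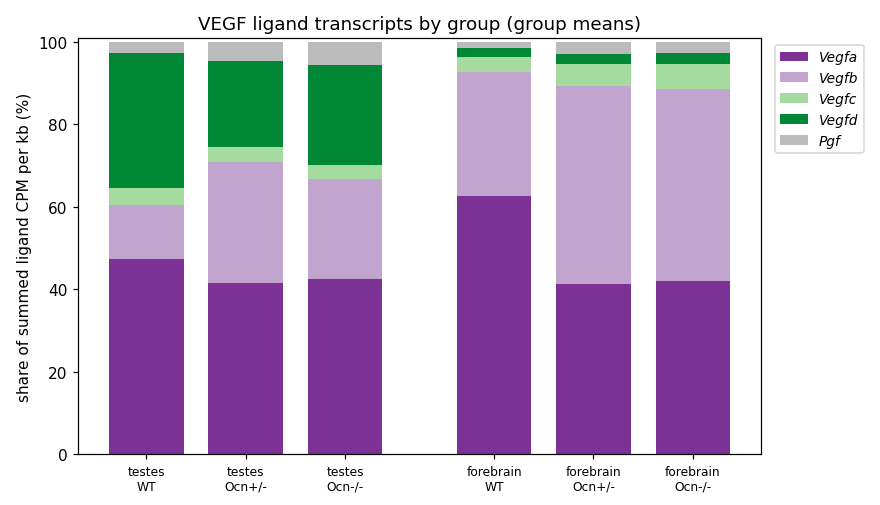
Mean share of each ligand gene in the summed ligand level (CPM per kb of exon, in percent) in each organ and genotype. *Vegfa* leads in WT forebrain with a mean of 62.7%, and *Vegfb* leads in both mutant groups, with 48.0% and 46.5%.

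Whether the lower levels went with fewer endothelial cells was described with 20 endothelial markers, none of them a member. Their summed level was 893 to 902 CPM in WT testes, 622 to 714 in *Ocn*+/- and 566 to 610 in *Ocn*-/- testes, and 5 of 20 were called lower in *Ocn*+/- and 9 of 20 in *Ocn*-/-, none higher. *Pecam1*, an adhesion molecule of endothelial junctions, fell by 0.93 and 1.13 on the log2 scale, *Clec14a* by 1.21 and 1.36, *Vwf* by 0.68 and 1.04 and *Emcn* by 0.92 and 1.03. In each mutant 3 of the 20 lay above WT, none called, among them *Sox18*, at 0.89 and 0.88, and *Cldn5*, at 0.53 and 0.27. In forebrain the sums overlapped, at 298 to 336 CPM in WT, 247 to 309 in *Ocn*+/- and 244 to 336 in *Ocn*-/-. *Vwf*, the von Willebrand factor gene, fell there by 0.92 and 1.24, whereas *Sox18*, which encodes an endothelial transcription factor, rose by 1.00 and 1.05. In these bulk samples, fewer endothelial cells and less RNA per cell cannot be told apart.

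Set against that sum, *Vegfa* was at 11.4 and 15.5 CPM per 100 CPM of endothelial markers in WT testes and at 7.69 to 9.52 in the mutants. *Flt1* was at 5.44 and 6.64 in WT and at 2.29 to 3.90 in mutant testes, *Vegfd* at 6.02 and 6.15 against 2.40 to 4.32, and *Kdr* at 13.4 and 13.8 against 8.80 to 12.7. In forebrain the same ratio was 27.3 to 32.9 against 13.0 to 16.2 for *Vegfa* and 11.8 to 19.6 against 5.36 to 9.32 for *Flt1*. For *Kdr* the lowest WT forebrain and the highest mutant were both at 17.8. In this ratio *Vegfa*, *Flt1*, *Vegfd* and *Kdr* in testes and *Vegfa* and *Flt1* in forebrain did not overlap between mutants and WT. The ratio was taken for the members only, so no share over all genes stands beside these gaps, and nothing is read from them. *Vegfa* is also made by many other cells than the marked ones. For *Nrp1* the testes ratios overlapped, at 9.70 and 10.7 in WT and 9.47 to 14.2 in the mutants, as did those of *Nrp2*, at 4.35 and 5.28 against 3.10 to 4.52. The *Flt4* ratio was 2.20 and 2.21 in WT and 2.16 to 2.42 in *Ocn*+/- testes, which overlapped, and 1.48 to 1.73 in *Ocn*-/- testes. *Vegfc* overlapped too, at 0.727 and 0.812 in WT and 0.215 to 0.743 in the mutants, as did *Vegfb*, at 2.47 and 3.10 against 2.86 to 4.82. The *Pgf* ratio was higher in every mutant, at 0.536 to 0.904 against 0.493 and 0.503. The CPM of *Pgf* overlapped between the genotypes, while the endothelial sum that it was divided by was lower in the mutants.

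**Figure D5:**
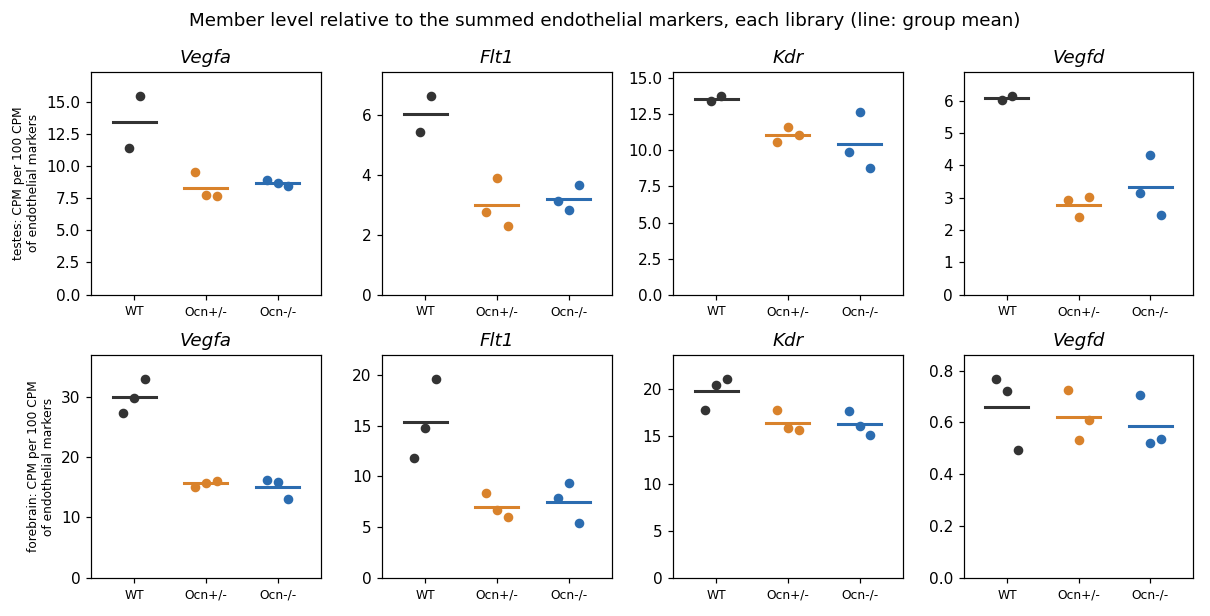
CPM of *Vegfa*, *Flt1*, *Kdr* and *Vegfd* per 100 CPM of the 20 summed endothelial markers, on linear axes from 0, in testes (top) and forebrain (bottom); points are libraries and lines are group means. The mutants lie below WT in both organs for *Vegfa* and *Flt1*, and the genotypes overlap for *Vegfd* in forebrain.

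Other markers moved with the WT group in testes. Neutrophil markers summed to 41.8 and 67.4 CPM in WT testes and to 3.44 to 14.4 in the mutants, and Leydig cell markers to 2404 and 2534 CPM against 1252 to 2012. *Ngp*, a neutrophil granule gene, fell by 2.88 and 3.59, and *Lhcgr*, the Leydig cell receptor for luteinizing hormone, by 1.23 and 1.19 on the log2 scale. *Lhcgr* was the only one of 9 Leydig markers called in either mutant. Of the 9, 7 lay below WT in *Ocn*+/- and 6 in *Ocn*-/- testes, with median log2 fold changes of -0.42 and -0.57. The 2 with the highest level went different ways, *Scarb1* at -0.42 and -0.57 and *Hsd3b1*, a steroid synthesis gene, at 0.05 and 0.32. Mural cell markers summed to 1357 and 1660 CPM in WT, 1178 to 1358 in *Ocn*+/- and 960 to 1189 in *Ocn*-/- testes, so that a single *Ocn*+/- library reached the lower WT value. Of 11 mural markers tested, 1 was called lower in *Ocn*+/- and 4 in *Ocn*-/-, none higher, and *Rgs5*, a pericyte gene, fell by 0.76 and 0.95. The Sertoli and germ cell sums overlapped, but *Sox9*, a Sertoli cell transcription factor, rose by 0.92 and 1.10. Peritubular and interstitial markers summed to 2185 and 2657 CPM in WT, 2274 to 2587 in *Ocn*+/- and 1866 to 1952 in *Ocn*-/- testes, with none of 8 called. Erythroid markers summed to 2600 and 6865 CPM in WT and 865 to 3943 in mutant testes, with median log2 fold changes of -1.05 and -1.45 and none of 6 called. The 5 markers of lymphatic endothelium, the cells known for *Flt4*, summed to 130.6 and 144.3 CPM in WT and 73.0 to 117 in mutant testes. Only *Pdpn* among them was called, lower in both mutants by 0.71 and 0.81 on the log2 scale. In each mutant 3 of the 5 lay below WT, among them *Reln* at -0.42 and -0.49, while *Ccl21a* was at 1.33 and 0.31 and *Prox1* at 0.07 and 0.14. In forebrain neutrophil markers were at most 3.00 CPM in any library, and 3 of 6 erythroid markers were called lower in *Ocn*+/- and 1 in *Ocn*-/-. Markers of forebrain regions outside the hippocampus summed to 948.4 to 1252 CPM in WT forebrain, 852.9 to 919.9 in *Ocn*+/- and 718.5 to 930.5 in *Ocn*-/-, so that no mutant library reached WT. Choroid plexus markers summed to 593 to 758 CPM in WT, 590 to 884 in *Ocn*+/- and 331 to 546 in *Ocn*-/- forebrain. Astrocyte and radial glia markers summed to 913 to 977 CPM in WT, 1102 to 1108 in *Ocn*+/- and 945 to 1231 in *Ocn*-/- forebrain, and *Gfap*, an astrocyte filament gene, rose by 0.75 and 0.65. *Cx3cr1*, a microglial receptor gene, rose by 0.84 and 0.91, while the macrophage and microglia sums overlapped. Lymphatic markers, some of them also expressed in neural cells, summed to 579 to 681 CPM in WT forebrain and 481 to 572 in the mutants. The part of these cells and regions in the differences of the members was not tested.

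Of the HIF target genes other than *Vegfa*, many of them for glycolysis and glucose transport, 18 of 30 tested were called lower in *Ocn*+/- testes and 19 of 30 in *Ocn*-/- testes, none higher. Their median log2 fold changes were -0.76 and -0.85, where the medians over all genes were 0.0066 and -0.0064. *Bnip3*, a mitochondrial autophagy receptor, fell by 1.78 and 1.55 on the log2 scale, and the glycolytic genes *Ldha* by 1.54 and 1.49, *Eno1* by 1.39 and 1.35 and *Pgk1* by 1.57 in *Ocn*+/- testes, with a similar fall in *Ocn*-/-. In forebrain 12 of 29 were called lower in *Ocn*+/- and 13 of 29 in *Ocn*-/-, none higher, with medians of -0.38 and -0.39. *Slc2a1*, the glucose transporter of the blood-brain barrier, fell by 1.24 and 1.14, and *P4ha2*, *P4ha1* and *Pfkl* were also called lower in both mutants. *Hif1a* itself was not called in either organ, with log2 fold changes from -0.24 to -0.05. Of 8 HIF subunits and regulators, 2 were called higher and 1 lower in *Ocn*+/- testes and 1 lower in *Ocn*-/- testes, and in forebrain 1 was lower in each mutant and 1 higher in *Ocn*-/-. *Epas1*, which encodes HIF-2α, fell by 0.51 and 0.68 in testes, and *Hif3a* fell by 2.07 and 1.69 in forebrain.

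Genes that VEGF induces in endothelial cells, without *Flt1*, were called lower in 6 of 14 cases in *Ocn*+/- and 5 of 14 in *Ocn*-/- testes, with 1 higher in each. *Esm1*, a marker of tip cells, fell by 2.64 and 1.98 on the log2 scale and *Cxcr4*, a chemokine receptor, by 1.54 and 1.23. *Nr4a2* fell by 3.89 and 3.51 and *Nr4a1* by 1.65 and 2.12, and both are also early response genes of many other cells. In forebrain 1 and 2 of 13 were called lower, among them *Angpt2*, a vessel-destabilizing ligand, which fell by 1.38 and 1.16. Of the intracellular signalling genes below the receptors, 3 of 46 were called lower and 2 higher in *Ocn*+/- testes, and 2 lower in *Ocn*-/- testes. *Ptprb*, the endothelial phosphatase that acts on VEGFR2, fell by 1.07 and 1.09. In forebrain none of 45 was called lower, and 1 and 2 were called higher, among them *Map2k2* with 0.38 in both mutants.

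The semaphorins and plexins that share the neuropilins gave 2 of 13 called higher in *Ocn*+/- and 1 of 13 in *Ocn*-/- testes, with *Plxna1* up by 0.76 and 0.89 on the log2 scale. In forebrain 3 and 1 of 13 were called lower, and *Plxna3* fell by 0.61 and 0.54. Of 12 genes that process VEGF or hold it in the matrix, only *Adamts1*, a protease, was called in testes, where it fell by 0.86 and 0.99. In forebrain none of the 12 was called in *Ocn*+/-, and 1 was higher and 1 lower in *Ocn*-/-. Of the 19 tested receptors and ligands of other angiogenic systems, 1 was higher and 1 lower in *Ocn*+/- testes and 2 were lower in *Ocn*-/- testes. Of the 18 tested in forebrain, 1 was higher and 1 lower in *Ocn*+/- and 1 was higher in *Ocn*-/-. The higher gene was *Aplnr*, the apelin receptor, which rose by 0.71 and 0.88.

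For each called member, the genes with the most similar pattern were taken as those with the smallest root mean square (rms) difference of centred log2 CPM over the libraries of the organ, 8 in testes and 9 in forebrain, which share the gap between WT and mutants. *Vegfa* in testes was nearest to *Tpi1* (rms 0.071), then *Ptprb*, *Slc2a1*, *Eno1* and *P4ha2*, where the median over all genes was 0.580. *Vegfa* in forebrain was nearest to *Adgrl4*, an endothelial receptor, and *Slc2a1* (both 0.117), then *Aasdh*, *Cav1* and *Snhg5*. *Slc2a1* was thus among the 5 nearest in both organs. *Flt1* in forebrain was nearest to *Aasdh* (0.212), *Sbk3*, *Vegfa*, *Snhg14* and *Slc2a1*, and in testes to *Rln1* (0.178), *Rasgef1b*, *Cebpb*, *Plac8* and *Per1*. *Kdr* in testes was nearest to *Tspan13* (0.0782), *Fzd4*, *Klhl13*, *Cd44* and *Nrp2*, and in forebrain to *Fchsd1* (0.0879), *Fbln1*, *Myl12a*, *Lama1* and *Eng*. *Nrp2* in testes was nearest to *Col4a5* (0.0541), *Serping1*, *Kdr*, *Ablim1* and *Tek*, the angiopoietin receptor. *Flt4* was nearest to *Vil1* (0.126), *Plvap*, *Traf5*, *Pdzrn3* and *Wnt5b*, and *Vegfd* to *Tiparp* (0.157), *Bdkrb2*, *Ptp4a1*, *Rgs2* and *Bnip3*.

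Whether the mutants differed from WT unequally in the 2 organs was fitted as an interaction, forebrain minus testes, for the mean of both mutants. It is built from the differences from WT that were known when the family was picked, so its calls are a description and no independent evidence. *Vegfd* was the only member called, with a log2 difference of 1.16 ± 0.303 from edgeR, where 2.96% of genes were called. For *Vegfa* the difference was 0.002 with a 95% interval from -0.322 to 0.326, and for *Flt1* it was 0.17 with an interval from -0.35 to 0.70. *Nrp1* gave 0.54 ± 0.150, *Flt4* 0.88 ± 0.287, *Kdr* 0.38 ± 0.173 and *Vegfc* 1.20 ± 0.433, and none of these passed the threshold. The *Vegfd* call was lost in 12 of 22 alternative settings, and without *Ocn*-/- replicate 2 of testes *Nrp1* and *Vegfc* were called too, at 0.59 and 1.42.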

How the data were processed

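The authors deposited RSEM expected counts per gene, made from poly-A selected, NEBNext Ultra libraries sequenced on an Illumina HiSeq, with Trim Galore 0.6.6, STAR 2.7.8a and RSEM 1.3.3 on GRCm39 (tools and versions from the submitters' processing notes). The annotation release and strand setting are not given in the sources used here, so reads of a gene and an antisense partner cannot be separated. Of 55359 genes, 9625 had a value that was not whole, and values were rounded. Identifiers were named with the GENCODE annotation of GRCm39, in which 610 were not found. The members, the gene lists and the tests were chosen with earlier results of these data known.

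Each organ was fitted alone with its 3 genotypes, and all 17 libraries together for organ contrasts, with edgeR 4.0.16 (R 4.3.3): filterByExpr by group, TMM factors, robust quasi-likelihood tests, two-sided, Benjamini-Hochberg adjustment over all genes tested, threshold 0.05. Standard errors are the absolute log2 fold change divided by the square root of F. Scripts were tested on simulated data. The fits were repeated with DESeq2 1.42.0, with upper quartile factors, with no factor beyond library size, with no filter beyond 1 count, with the replicate number as a block and with each library left out, and levels per kb with other lengths. All members were named. Of other lists, at most 4 genes per organ were named by rule, those called in both mutants with the same sign by largest mean change. With fewer than 2 such genes, those with the highest CPM were also named. Outside this rule, *Sox18*, *Cldn5*, *Ccl21a* and *Prox1* were named in testes because they lay above WT, and *Bglap* and *Bglap2* for the genotype check. *Vegfa* and *Flt1* were left out of the other lists. Similarity used log2 CPM with a prior count of 2. Same-numbered libraries correlated between -0.0937 and 0.146, so numbers were not taken as pairs.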

Additional observations from a re-analysis of the deposited data

Results flagged for a closer look

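*Vegfd* differed between the organs in how far the mutants stood from WT, with an interaction of 1.16 on the log2 scale (edgeR, 95% interval 0.566 to 1.753) that passed the threshold. This value is built from the differences from WT that were known when the family was picked, so the call is a description and no independent evidence. In testes all 6 mutant libraries (14.5 to 24.5 CPM) lay below both WT libraries (53.8 and 55.5 CPM), whereas in forebrain the gene had 1.27 to 2.42 CPM and the genotypes overlapped. The forebrain values rest on 9 to 30 counts per library, and the call was lost in 12 of 22 alternative settings. The groups hold 2 or 3 libraries, so single libraries were not tested as outliers.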

How the results depend on the processing

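The calls of *Vegfa* and *Flt1* in both organs, of *Vegfd* in testes and of *Kdr* in *Ocn*-/- testes held in every alternative, and the number of members called against WT stayed within 1.5 times the reported number. The limits are 2 WT testes, the forebrain library WT replicate 3, and low counts for *Vegfc*, *Pgf* and forebrain *Vegfd*. With testes WT replicate 1 or WT replicate 2 left out, 131 or 118 genes were called in *Ocn*+/- and 231 or 85 in *Ocn*-/- testes, and without forebrain WT replicate 3, 183 and 189 in forebrain. The cause was not tested.

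Replicate numbers do not mark pairs. With the replicate block, 4 and 6 members in testes and 3 and 3 in forebrain were called against WT, the interaction called 0, 1 gene was called between the mutants in testes, and *Pgf* in *Ocn*-/- testes was at -0.127. The block changed no other member count.

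Without the filter on low counts, 2149 and 1763 genes were called against WT in testes, 1265 and 1502 in forebrain, 252 and 34 between the mutants, and 1023 in the interaction, with 2 members. DESeq2 called 72 and 5 genes between the mutants and 947 in the interaction, with 2 members, and put *Vegfa* at 0.0064 between organs and -0.0015 in the interaction. With upper quartile normalization *Vegfa* was at -0.0114 in the interaction. With library size alone, 369 genes were called in *Ocn*+/- forebrain, 2 between the forebrain mutants, and 0 members in the interaction. There the share of calls that were higher was 68.1% and 65.2% in testes (47.2% and 45.1% with TMM) and 47.7% and 64.5% in forebrain (31.0% and 37.2%), *Pgf* in *Ocn*+/- testes was at 0.0135, *Vegfb* in *Ocn*-/- forebrain at 0.0876 (0.003 without the filter), *Kdr* between forebrain mutants at 0.0038 and *Flt1* between organs at -0.168. The median of all genes in *Ocn*-/- forebrain moved from 0.00606 to 0.106. By level per length, against their order over all libraries of the organ, 5 of 10 members kept their rank in WT testes alone, 6 in WT forebrain alone, and 5 in forebrain with the longest transcript.

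With each library left out in turn, genes called ranged from 118 to 2019 and 85 to 1559 in testes, 183 to 830 and 189 to 919 in forebrain, 0 to 47 and 1 to 2 between the mutants, and 93 to 1070 in the interaction, with 0 to 3 members. Members whose sign turned, none of them called, ranged as follows on the log2 scale. Against WT in testes, *Pgf* ranged from -0.178 to 0.0524 and from -0.125 to 0.149 and *Vegfb* from -0.336 to 0.0212. In forebrain, *Vegfc* ranged from -0.330 to 0.0597 and from -0.177 to 0.213, *Vegfb* from -0.048 to 0.0466 and *Flt4* from -0.0968 to 0.272. Between the mutants in testes, *Vegfc* ranged from -0.776 to 0.0223, *Vegfd* from -0.144 to 0.225, *Pgf* from -0.0618 to 0.213, *Flt1* from -0.218 to 0.174 and *Nrp1* from -0.194 to 0.065. In forebrain, *Vegfa* ranged from -0.145 to 0.0409, *Vegfd* from -0.257 to 0.0453, *Pgf* from -0.396 to 0.0082, *Flt1* from -0.0286 to 0.205, *Kdr* from -0.120 to 0.0709, *Flt4* from -0.218 to 0.150 and *Nrp2* from -0.368 to 0.0316. Between organs, *Vegfa* ranged from -0.219 to 0.234 and *Flt1* from -0.0189 to 0.382. In the interaction, *Vegfa* ranged from -0.241 to 0.211, *Vegfb* from -0.148 to 0.200 and *Flt1* from -0.0223 to 0.379.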
